A study of Homo sapiens with 15 samples.

Results

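The genes described here are 10 members of a stress and amino acid programme: the transcription factor gene ATF4, its stress-response targets DDIT3, TRIB3 and CHAC1, the asparagine synthetase gene ASNS, the mTORC1 inhibitor gene DDIT4, and the serine pathway genes PHGDH, PSAT1, PSPH and SHMT2. They were taken by symbol from the gene table, and all 10 had a row among its 18858 genes. RNA came from MDA-MB-231, a human triple-negative breast cancer line, as part of a study of how the Hippo pathway effectors YAP (gene YAP1) and TAZ (gene WWTR1) affect invadopodia, the protrusions that degrade matrix. The 5 groups of 3 libraries each were Control, which was not transfected, siControl, which received a non-targeting siRNA pool, siYAP and siTAZ, which each received the siRNA pool against that gene, and siYAP+TAZ, which received both pools. Transfected cells were kept for 48 h and then cultured for 5 to 6 h on gelatin, so all levels are those of cells newly plated on gelatin. The siRNA reagents were pools, the knockdown was transient, and the methods give a concentration per siRNA, not the total that each group received.

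ATF4 is the effector of the integrated stress response. Kinases that sense unfolded protein, missing amino acids, haem shortage or viral RNA phosphorylate the initiation factor eIF2alpha, which lowers bulk translation while favouring translation of the ATF4 mRNA, so the mRNA level of ATF4 is not a measure of its protein. ATF4, often paired with a C/EBP protein, then drives genes for amino acid uptake and synthesis, tRNA charging and, under lasting stress, cell death. Serine is made from a glycolysis intermediate by PHGDH, PSAT1 and PSPH in turn, and SHMT2 converts it to glycine in mitochondria while passing a carbon unit to folate for nucleotide synthesis.

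Libraries held 18696737 to 30107312 counts. VIM and CD44, markers of this mesenchymal-like line, were at 21578 to 38756 and 17514 to 25825 counts, the leukocyte marker PTPRC reached at most 6 counts and the progesterone receptor gene PGR at most 7, while the epithelial marker EPCAM was present at 209 to 389 counts. The targeted genes followed the labels in direction but unevenly. YAP1 was at 1013, 2764 and 761 normalized counts (counts scaled to a common library size) in siYAP 18, 23 and 28 and at 2240.2, 2202 and 1796 in siYAP+TAZ, against 4202 to 4431 in siControl. WWTR1 was at 828, 254 and 521 normalized counts in siTAZ 19, 24 and 29 and at 1133, 1123 and 1284 in siYAP+TAZ, against 1579 to 1995 in siControl. The number after each group is the library number in the labels. YAP1 thus remained highest in siYAP 23 among the siYAP libraries, and WWTR1 mRNA in siYAP+TAZ averaged 65.2% of its siControl mean, against 29.6% in siTAZ. Among these targets only WWTR1 in siTAZ passed the test (edgeR quasi-likelihood test adjusted over all genes by Benjamini-Hochberg, adjusted p = 0.0187), and YAP1 in siYAP had an adjusted p of 0.0992.

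Promoter sequence is shown for CHAC1, ASNS and DDIT4, since CHAC1 and ASNS hold the element read by ATF4 with C/EBP proteins and DDIT4 was the member with the largest fold change. RefSeq promoter windows (GRCh38.p14, 250 bases before to 50 after a transcription start) were at hand for 8 of the 10 members, with 13 windows in all, and PSPH and SHMT2 had none. Each line gives the 250 bases before the start, 5′ to 3′ on the strand of the gene, with the matched element in capitals. The element is TGATGCAA on the opposite strand in CHAC1, its wider form TGATGNAA in ASNS, and ACGTG, the core of the element bound by hypoxia-inducible factors, in DDIT4.
CHAC1, chr15:40953221-40953470, plus strand: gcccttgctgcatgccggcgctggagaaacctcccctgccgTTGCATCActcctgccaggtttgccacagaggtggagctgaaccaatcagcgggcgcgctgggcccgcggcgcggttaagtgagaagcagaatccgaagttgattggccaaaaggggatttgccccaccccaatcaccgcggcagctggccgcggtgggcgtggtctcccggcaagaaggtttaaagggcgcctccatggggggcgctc
ASNS, chr7:97872409-97872658, minus strand: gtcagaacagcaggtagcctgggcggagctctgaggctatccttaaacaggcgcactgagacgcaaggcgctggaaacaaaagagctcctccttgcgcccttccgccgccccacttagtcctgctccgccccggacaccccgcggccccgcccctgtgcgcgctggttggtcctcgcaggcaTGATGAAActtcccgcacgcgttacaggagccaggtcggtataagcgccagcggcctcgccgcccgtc
DDIT4, chr10:72273674-72273923, plus strand: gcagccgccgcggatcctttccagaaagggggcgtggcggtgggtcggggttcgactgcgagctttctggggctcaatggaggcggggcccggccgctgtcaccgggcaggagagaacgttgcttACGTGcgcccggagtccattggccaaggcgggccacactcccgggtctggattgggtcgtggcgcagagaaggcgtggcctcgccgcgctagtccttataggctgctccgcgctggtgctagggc

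Searched on both strands, TGATGCAA was present in the windows of 1 of these 8 members, CHAC1, with its first base at -209 from the start, and in 0.866% of all 35116 windows. The wider form TGATGNAA, which includes the former, was in 2 members, CHAC1 and ASNS (at -68 in ASNS), and in 3.62% of all windows. The cyclic AMP response element TGACGTCA was in 0 members and in 1.85% of windows. Of the motifs searched after the data were seen, GGAATG, the motif of the TEAD factors through which YAP and TAZ reach DNA, was in 0 members and in 4928 of the 35116 windows, and ACGTG was in ATF4 and DDIT4 (at -125 in DDIT4) and in 21.4% of windows. A match in these letters does not show that a factor binds there, and distal elements were not searched.

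At baseline the members spanned a wide range of mRNA levels. Per kilobase of the canonical transcript, a scale on which genes can be compared, siControl levels were 5464 ± 334 normalized counts (SD, n = 3) for ATF4, 3320.0 ± 93.1 for SHMT2, 1358 ± 74.4 for PSAT1 and 561 ± 30.7 for TRIB3. They were 335 ± 18.6 for PSPH, 217 ± 105 for DDIT4, 196 ± 17.5 for DDIT3, 151 ± 14.4 for PHGDH and 139 ± 28.0 for CHAC1, and ASNS came last at 9.33 ± 2.68. Thus SHMT2 and PSAT1 stood far above PHGDH, the enzyme that feeds them. DDIT4 differed from PSPH, DDIT3, PHGDH and CHAC1, and PHGDH from CHAC1, by less than the sum of their SDs. Dividing by the union of all annotated exons instead kept ATF4, SHMT2, PSAT1 and TRIB3 on top over the 15 libraries (2851, 1474, 1264 and 412) but lowered PHGDH to 33.5, because its annotated exons add up to 9.187 kb against a canonical transcript of 1.866 kb. Of all genes in the table, 97.2% had a lower mean normalized count than ATF4 and 30.9% a lower one than ASNS.

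**Figure D1:**
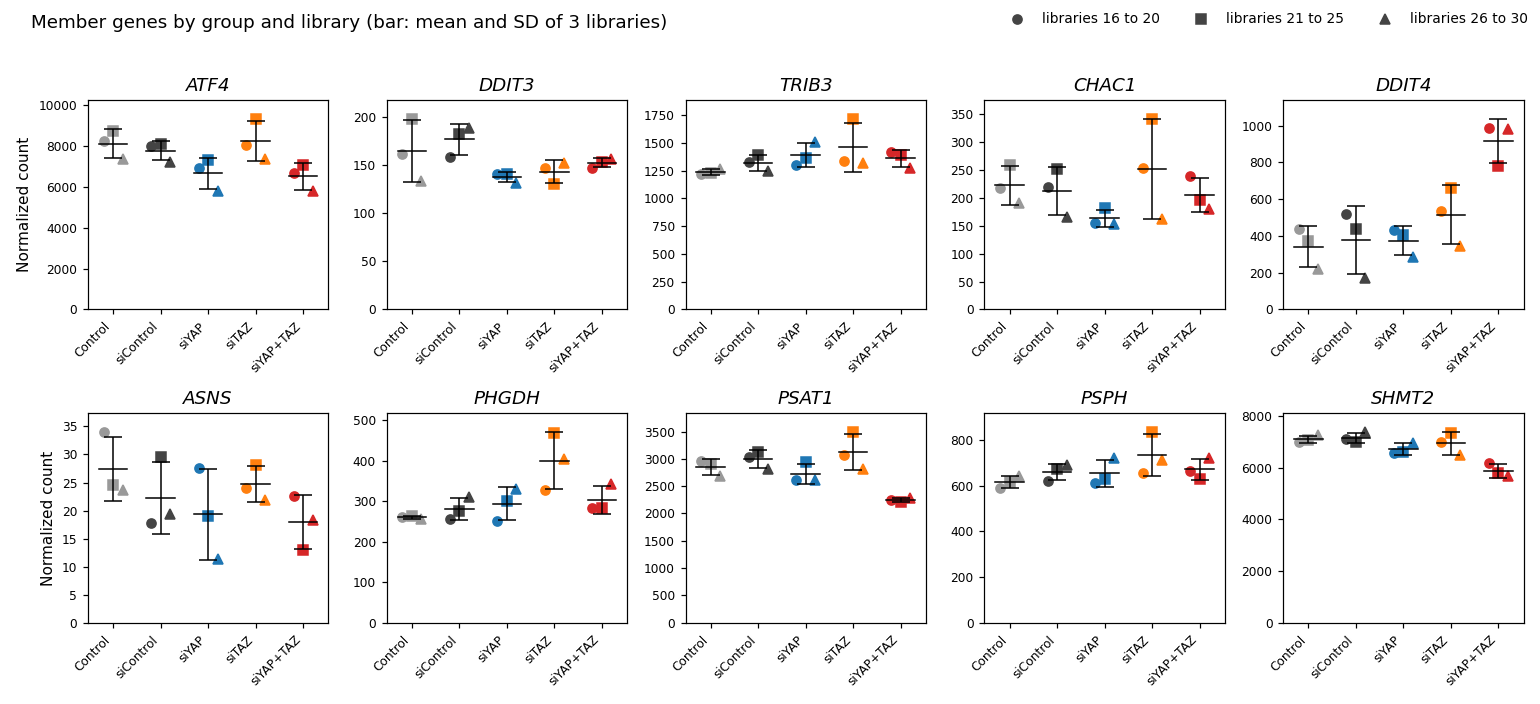
Normalized counts of the 10 members (vertical axis, starting at 0) in the 5 groups, 1 point per library, with the mean and SD of 3 libraries in black and the marker shape showing which libraries have neighbouring numbers. DDIT4 lies at 779.9 or above in siYAP+TAZ and at 663 or below elsewhere, PSAT1 lies at 2285 or below in siYAP+TAZ and at 2609.5 or above elsewhere, and siTAZ 24 tops 6 of the 10 panels.

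Co-knockdown of YAP and TAZ moved 3 of the 10 members past the test against siControl: DDIT4 rose, and PSAT1 and SHMT2 fell. The threshold for a changed gene was an adjusted p of 0.05, and a changed gene whose log2 fold change was also 1 or more in size was called differentially expressed, as was DDIT4 alone (3.46% of all genes were). In the same comparison 18.4% of all 18858 genes changed, 9.97% being higher and 8.39% lower, and among the 5079 genes averaging 1000 normalized counts or more 30.9% changed. Of the 4 members at that level, ATF4, TRIB3, PSAT1 and SHMT2, 2 changed. Read against these shares, 3 of 10 members is near the background. In bulk RNA, fewer cells expressing a gene and less of its RNA per cell cannot be told apart. With library size as the only scaling, 2152 genes were higher and 1194 lower, in place of 1881 and 1583, and with the run of library numbers as a block 5389 genes (28.6%, and 46.9% of those averaging 1000 or more) and 4 members changed, ATF4 being the member added. The groups did not overlap for 5 members (ATF4, DDIT3, DDIT4, PSAT1 and SHMT2), against 36.4% of all genes, and 4 members had an unadjusted p under 0.05, against 30.3%. The median log2 fold change of the members was -0.13, and that of all genes was -0.0048.

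DDIT4 (ENSG00000168209, chr10:72273919-72276036, plus strand) encodes REDD1, a protein that restrains mTORC1 through the TSC complex and is induced by hypoxia, glucocorticoids and energy or amino acid stress. Its normalized counts were 988, 779.9 and 984 in siYAP+TAZ 20, 25 and 30, and 522, 439 and 172 in siControl 17, 22 and 27. They were 437, 372 and 219.6 in Control, 431, 406 and 284 in siYAP, and 536, 663 and 346 in siTAZ. Each siYAP+TAZ library was above every one of the other 12, and outside siYAP+TAZ the library of the highest number had the lowest level in its group. The difference from siControl was 1.27 on the log2 scale (SE 0.38, 95% confidence interval 0.43 to 2.11, adjusted p = 0.0395), or 2.41-fold. Between libraries with neighbouring numbers the ratio was 1.89, 1.78 and 5.73, the last of these set against siControl 27. The call was lost without siControl 22 or 27 or without any of the 3 siYAP+TAZ libraries (adjusted p of 0.0572 to 0.0977), and the log2 fold change without siControl 27 was 0.93. It was also lost when only these 2 groups entered the fit (adjusted p = 0.114).

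Against the single knockdowns the DDIT4 difference was 1.29 (SE 0.379, adjusted p = 0.0828) from siYAP and 0.83 (SE 0.375, adjusted p = 0.259) from siTAZ, and neither passed. The difference from siYAP passed in other fits, with an adjusted p of 0.0236 in DESeq2, 0.0184 in limma-voom, 0.0250 without robust estimation and 0.0024 with only those 2 groups. With the run of library numbers as a block in edgeR its adjusted p was 0.0149. In siYAP alone the log2 difference of DDIT4 from siControl was -0.02 (95% confidence interval -0.86 to 0.83), and in siTAZ alone it was 0.44 (-0.40 to 1.29). The interaction, by which the co-knockdown departs from adding up the separate effects on the log2 scale, was 0.85 with an interval of -0.33 to 2.03 (adjusted p = 0.913). WWTR1 mRNA averaged 65.2% of its siControl mean in siYAP+TAZ and 29.6% in siTAZ, so TAZ depletion was unequal. For every member, interactions and differences of siYAP+TAZ from siTAZ include that inequality, and its part was not tested.

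PSAT1 (ENSG00000135069, chr9:78297125-78330093, plus strand), the aminotransferase of the serine pathway, was the member with the lowest adjusted p. Its normalized counts were 2256, 2208 and 2285 in siYAP+TAZ, and 3042, 3131 and 2813 in siControl. The other levels were 2956, 2912 and 2689 in Control, 2613, 2935 and 2609.5 in siYAP, and 3074, 3489 and 2820.1 in siTAZ. All siYAP+TAZ libraries were below all others, and within siYAP+TAZ they differed little (SD 39.0 of a mean of 2249). The log2 fold change from siControl was -0.41 (SE 0.0799, adjusted p = 0.0013), a level of 75.1% of siControl, and the ratios between libraries with neighbouring numbers were 0.74, 0.71 and 0.81. The call held whichever library of these groups was left out (-0.46 to -0.38). PSAT1 also fell against siTAZ, by 0.48 on the log2 scale (SE 0.0801, adjusted p = 0.0020). The difference from siYAP was -0.27 (SE 0.0799, adjusted p = 0.0544), which did not pass, though it passed with DESeq2 (0.0296) and with filters on low counts (0.0417 and 0.0433). It also passed in edgeR with the run as a block (adjusted p = 0.0034). In neither single knockdown did PSAT1 pass, with a log2 difference from siControl of -0.14 (95% confidence interval -0.31 to 0.03) in siYAP and of 0.06 (-0.10 to 0.23) in siTAZ. The interaction was -0.34 (SE 0.113, unadjusted p = 0.0079, adjusted p = 0.655).

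SHMT2 (ENSG00000182199, chr12:57229573-57234935, plus strand), the mitochondrial serine hydroxymethyltransferase, was at 6196, 5817 and 5676 normalized counts in siYAP+TAZ and at 7119, 6985 and 7379.8 in siControl. It was at 7003, 7077 and 7258 in Control, at 6579, 6621 and 6980.3 in siYAP, and at 7004, 7353 and 6492 in siTAZ. As for PSAT1, every siYAP+TAZ library was below the other 12. The log2 fold change from siControl was -0.28 (SE 0.065, adjusted p = 0.0051), a level of 82.3% of siControl. It was -0.24 from siTAZ (SE 0.065, adjusted p = 0.0397) and -0.19 from siYAP (SE 0.065, adjusted p = 0.103). The difference from siYAP passed with DESeq2 (adjusted p = 0.0410) and in edgeR with the run as a block (adjusted p = 0.0299). The fall against siTAZ no longer passed without siTAZ 19 or 24, without any 1 of the siYAP+TAZ libraries, with library size as the only scaling or with only those 2 groups (adjusted p of 0.057 to 0.158). The ratios to siControl between libraries with neighbouring numbers were 0.87, 0.83 and 0.77, and the call against siControl held without any 1 library (-0.32 to -0.25).

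The entry and exit steps of serine synthesis did not pass the test. PHGDH (ENSG00000092621, chr1:119648411-119744218, plus strand), which catalyses the entry step, was at 282, 284 and 343 normalized counts in siYAP+TAZ and at 257, 276 and 310.0 in siControl, a log2 difference of 0.11 (95% confidence interval -0.17 to 0.40). PSPH (ENSG00000146733, chr7:56011051-56051604, minus strand), the phosphatase of the last step, was at 666, 631 and 721 against 620.0, 675 and 689.8, a difference of 0.03 (-0.18 to 0.23). The intervals of both lie above the PSAT1 estimate of -0.41. Of PSPH's 50-base stretches, 5.98% are shared with other genes such as PSPHP1, so that some of its reads may be counted elsewhere.

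**Figure D2:**
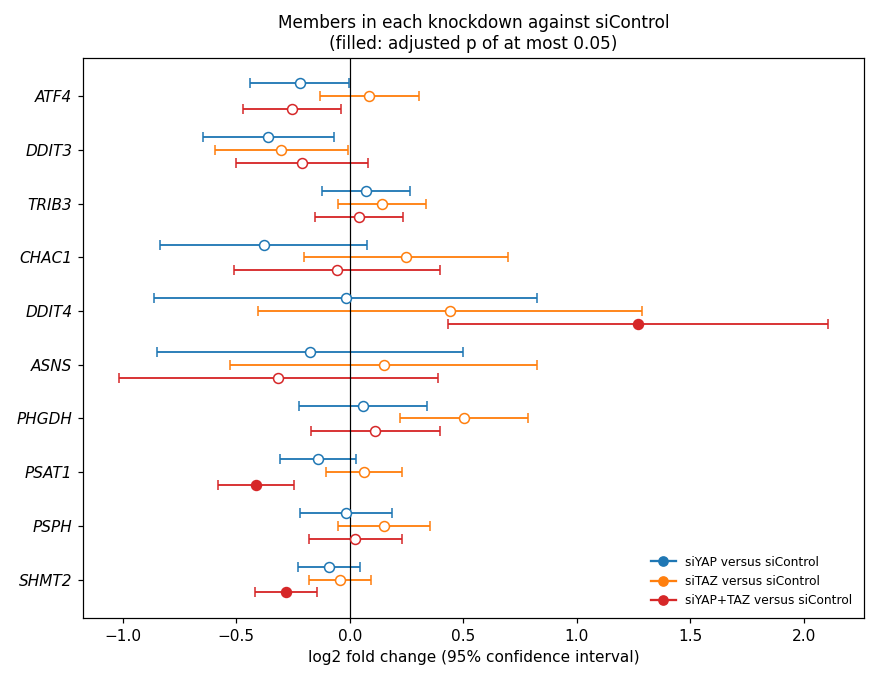
Log2 fold changes (horizontal axis) of the 10 members (vertical axis) in siYAP, siTAZ and siYAP+TAZ against siControl, with 95% confidence intervals and filled points for an adjusted p of at most 0.05. The 3 filled points, DDIT4 at 1.27, PSAT1 at -0.41 and SHMT2 at -0.28, all belong to siYAP+TAZ, and the interval of PHGDH in siTAZ (0.22 to 0.79) lies above 0 without passing.

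ATF4 itself (ENSG00000128272, chr22:39519695-39522683, plus strand) did not pass in the fit without a block, and passed with one. Its normalized counts were 6672, 7067 and 5768 in siYAP+TAZ, 7989, 8065 and 7208 in siControl, and 8252, 8736 and 7335 in Control. They were 6887, 7279.8 and 5792 in siYAP, and 8034, 9302 and 7361 in siTAZ. The siYAP+TAZ values were below all siControl values, and the siYAP values overlapped with them. The log2 difference from siControl was -0.25 (SE 0.103, adjusted p = 0.0996) in siYAP+TAZ, -0.22 (SE 0.103, adjusted p = 0.409) in siYAP and 0.09 (SE 0.103, adjusted p = 0.755) in siTAZ. Between libraries with neighbouring numbers the log2 difference was -0.26, -0.19 and -0.32 in siYAP+TAZ and -0.21, -0.15 and -0.32 in siYAP, lower in 3 of 3 runs each. With the run of library numbers as a block, ATF4 passed in both, at -0.26 (SE 0.0569, adjusted p = 7.69e-04) in siYAP+TAZ and -0.23 (SE 0.0567, adjusted p = 0.0132) in siYAP. Set against Control instead, without a block, the siYAP+TAZ difference was -0.32 and passed (adjusted p = 0.0369). Of the 50-base stretches of ATF4 transcripts, 15.12% occur in its pseudogenes or other genes.

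The stress effectors downstream of ATF4 did not pass in any of the 8 comparisons in the fit without a block. DDIT3 (ENSG00000175197, chr12:57516588-57521737, minus strand), which encodes the pro-apoptotic factor CHOP, was at 147, 154 and 157 normalized counts in siYAP+TAZ, at 141, 141 and 131 in siYAP and at 147, 130.1 and 153 in siTAZ, against 159, 183 and 189 in siControl. All 9 knockdown libraries were below all siControl libraries, but Control, at 162, 198 and 134, covered most of that range. The log2 differences from siControl were -0.21, -0.36 and -0.30 in siYAP+TAZ, siYAP and siTAZ, with adjusted p of 0.335, 0.271 and 0.294. These 3 comparisons share the siControl libraries. Of the exonic bases of DDIT3, 31.6% overlap genes on the opposite strand, chiefly MARS1, which fell in siYAP+TAZ (log2 difference -0.26, SE 0.0695, adjusted p = 0.0127). MARS1 was at -0.15 (SE 0.0693, adjusted p = 0.383) in siYAP and at 0.01 (SE 0.0693, adjusted p = 0.963) in siTAZ. The strand setting of the counts is not given in the sources used here, and the part of MARS1 reads in the DDIT3 counts was not tested.

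TRIB3 (ENSG00000101255, chr20:362835-397559, plus strand), a pseudokinase that feeds back on ATF4, stayed within 1223 to 1716 normalized counts in all 15 libraries. In siYAP+TAZ it was at 1419.8, 1389 and 1276 and in siControl at 1326, 1393 and 1249, a log2 difference of 0.04 (95% confidence interval -0.15 to 0.23). CHAC1 (ENSG00000128965, chr15:40952962-40956512, plus strand), which degrades glutathione, was more variable, with 239, 197 and 179 in siYAP+TAZ against 219, 251 and 166 in siControl. Its difference was -0.06 (-0.51 to 0.40). CHAC1 was at 155, 181 and 153 in siYAP and at 253, 339.9 and 162 in siTAZ, which overlap, and the direct difference of siYAP from siTAZ was -0.63 (SE 0.215, unadjusted p = 0.0099, adjusted p = 0.201). With the run as a block this difference passed (-0.61, SE 0.134, adjusted p = 0.0053), though the runs were not taken to pair siTAZ with other groups. ASNS (ENSG00000070669, chr7:97851677-97872542, minus strand), which makes asparagine, had only 11 to 36 counts per library. Its normalized counts were 22.6, 12.9 and 18.4 in siYAP+TAZ and 17.9, 29.6 and 19.3 in siControl, a log2 difference of -0.32 (95% confidence interval -1.02 to 0.39). Of its exonic bases, 49.33% overlap another gene on the same strand, ENSG00000284707, and reads there may have been left uncounted, so the level of ASNS is uncertain.

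In siYAP alone 0 members changed, against 0.933% of all genes (176 genes). With the block 1151 genes (6.1%) changed, ATF4 among them. The 176 fell to 27, 64 or 68 without siControl 17, 22 or 27, and to 58 or 41 without siYAP 18 or 28. Without a block 2 members (ATF4 and DDIT3) had an unadjusted p under 0.05, against 11.9%. The groups did not overlap for DDIT3 and SHMT2, as for 19.5% of all genes. In siTAZ alone 0 members changed, against 2.03% of all genes (383 genes). That count was 68 without siTAZ 24, 242 without siTAZ 29, 118 or 124 without siControl 17 or 22, and 901 without siTAZ 19. In siTAZ 2 members (DDIT3 and PHGDH) had an unadjusted p under 0.05, against 16.0%, and they were also the 2 whose groups did not overlap, against 20.9%. PHGDH was at 327, 468 and 404 normalized counts in siTAZ, and all 3 values were above the 257 to 310.0 of siControl and the 256 to 262 of Control. They overlapped with siYAP (249.8, 300.4 and 329.7). The log2 difference from siControl was 0.50 (SE 0.134, adjusted p = 0.0571) by edgeR, and the adjusted p was 0.0234 by DESeq2, 0.0438 with library size as the only scaling, 0.0179 against Control and 0.0109 without siTAZ 19. In siYAP+TAZ, where WWTR1 was less depleted than in siTAZ, the PHGDH difference was 0.11, and siYAP+TAZ lay below siTAZ by a log2 difference of -0.39 (SE 0.134, adjusted p = 0.1002), which passed without siTAZ 19 (-0.52, adjusted p = 0.0304). The part of WWTR1 depletion in these PHGDH values was not tested.

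The library siTAZ 24, in which WWTR1 was lowest, also carried the highest level of 6 members: ATF4, TRIB3, CHAC1, PHGDH, PSAT1 and PSPH. It also had the lowest level of DDIT3. Of the 13210 genes averaging 20 normalized counts or more, 12.3% were highest in that library, the largest share of any library, and 10.6% were lowest there. Without siTAZ 24 the siTAZ differences from siControl fell to 0.01 for TRIB3, 0.05 for PSPH and 0.37 for PHGDH, and those of ATF4, CHAC1 and PSAT1 turned to -0.01, -0.02 and -0.02. The part of knockdown strength in this pattern was not tested.

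**Figure D3:**
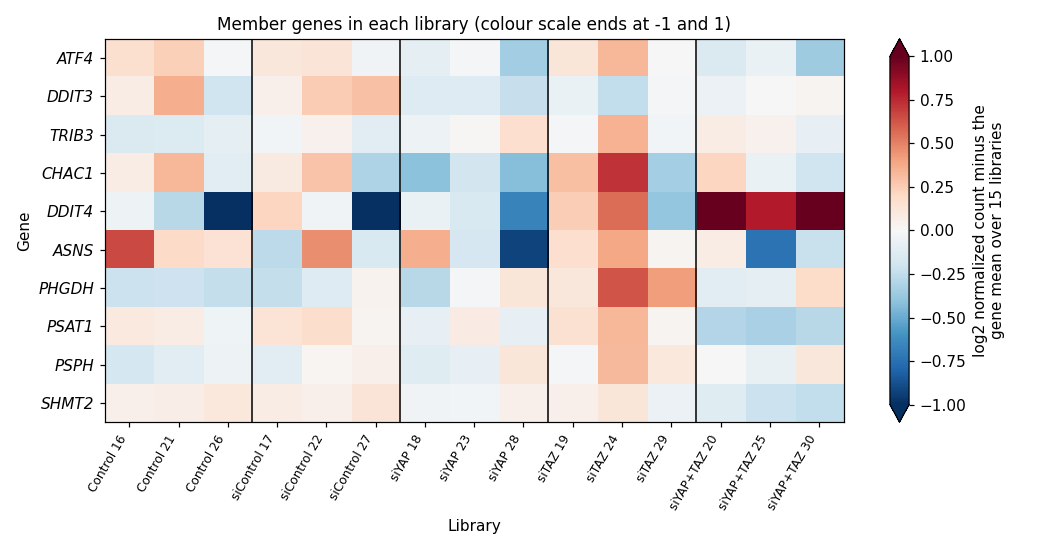
Log2 normalized count of each member (rows) in each of the 15 libraries (columns, grouped by treatment), as the difference from the mean of that gene over the 15 libraries, with the colour scale ending at -1 and 1. The column of siTAZ 24 is red for most rows, the DDIT4 row is red in the 3 siYAP+TAZ columns and deepest blue in Control 26 and siControl 27, and the PSAT1 row is blue in siYAP+TAZ.

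Between siYAP+TAZ and siYAP 0 members changed (5.13% of all genes did), and DDIT4, PSAT1 and SHMT2 had an unadjusted p under 0.05 (19.2%). With the run as a block these 3 members passed (adjusted p of 0.0149, 0.0034 and 0.0299), as did 2758 genes in all (14.6%). Without a block the 968 genes behind the 5.13% became 399 or 593 without siYAP 18 or 23 and 545 or 502 without siYAP+TAZ 20 or 25. Between siYAP+TAZ and siTAZ 2 members changed, PSAT1 and SHMT2, both lower, against 5.44% of all genes (2.38% lower) and 9.06% of those averaging 1000 normalized counts or more, and 5 members had an unadjusted p under 0.05, against 19.3%. The 1025 genes behind the 5.44% became 552 or 519 without siTAZ 24 or 29 and 475 or 465 without siYAP+TAZ 20 or 25. Between siYAP and siTAZ 0 members changed (0.642% of all genes did, or 121). By edgeR these 121 became 0 without siYAP 18 or 28, 4 or 3 without siTAZ 24 or 29, and 417 without siTAZ 19. With all libraries, the members' log2 differences ran from -0.63 to -0.05, all 10 being below 0, against 52.8% of the genes averaging 20 normalized counts or more. Between libraries with neighbouring numbers, which were not taken as pairs for siTAZ, the sign differed among the 3 runs for DDIT3, TRIB3, ASNS, PSPH and SHMT2. ATF4, CHAC1, PHGDH and PSAT1 had an unadjusted p under 0.05 in the same comparison (13.7% of all genes did), and without siTAZ 24 their differences shrank to -0.20, -0.35, -0.30 and -0.10. No member had an interaction that passed (2 genes in all did, or 0.0106%, and 0 to 5 when 1 library was left out), and DDIT3, PHGDH and PSAT1 had an unadjusted p under 0.05 (5.85% of all genes), with interactions of 0.45, -0.45 and -0.34. In siControl against Control, which differ by transfection with the non-targeting pool, 0 genes (0.0%) passed in edgeR, 0 in DESeq2, 0 in limma-voom and 1 with the block, with 398 genes (2.11%) and 0 members at an unadjusted p under 0.05, and member differences from -0.31 to 0.14. These comparisons share libraries, so their values are not independent of each other.

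Pairs of members followed each other to different degrees across libraries. As a description over the 15 libraries, which share their groups, the Pearson correlation of log2 levels was 0.89 for PHGDH and PSPH, 0.80 for PSAT1 and SHMT2, 0.78 for ATF4 and PSAT1, and 0.75 for ATF4 and CHAC1. For PHGDH and PSPH it was 0.80 without siTAZ 24 and 0.88 for deviations from the group means, whereas for PSAT1 and SHMT2 the deviations from group means correlated at 0.23. DDIT4 and SHMT2 had the lowest value, -0.68, and -0.08 for deviations. ATF4 correlated at 0.09 with TRIB3 and 0.05 with PHGDH, at -0.47 and -0.41 without siTAZ 24, and at 0.37 and -0.22 for deviations from the group means, so the sign for each pair differed with the measure. The 5 genes whose pattern over the 15 libraries was most like the mean of DDIT3, TRIB3, CHAC1 and ASNS were FASTK, CCNO, SLX4IP, SLC11A2 and DAPK1 (Pearson correlation 0.81 to 0.85, out of 13200 genes, and 0.76 to 0.87 without siTAZ 24). Those most like the mean of PHGDH, PSAT1, PSPH and SHMT2 were SETD7, SARS1, RCE1, SCNM1 and CASP2 (0.88 to 0.90, and 0.73 to 0.87 without siTAZ 24). The latter mean was highest in siTAZ 24, at a z-score of 2.70 against 0.71 in the next library, siTAZ 29. Within the first averaged set, correlations over the 15 libraries ran from -0.56 (DDIT3 and TRIB3) to 0.49 (CHAC1 and ASNS). Within the second set they ran from -0.015 (PHGDH and SHMT2) to 0.89. Neither mean therefore stands for a pattern shared by all its genes.

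The wider pathway was described through 8 lists of genes, some of which share members. In siYAP+TAZ against siControl, 13 of 31 other ATF4 targets measured had changed, 5 higher and 8 lower, with a median log2 fold change of -0.19. Over all genes 18.4% changed, 9.97% higher and 8.39% lower, and 30.9% of those averaging 1000 normalized counts or more, a level that 14 of the 31 reached. SLC3A2 and SLC7A5, whose products pair as a transporter of large neutral amino acids, fell by 0.51 (SE 0.0864, adjusted p = 4.12e-04) and 0.50 (SE 0.0805, adjusted p = 3.01e-04) on the log2 scale. PPP1R15A, the eIF2alpha phosphatase subunit that ends the response, fell by 0.51 (SE 0.0903, adjusted p = 6.82e-04). The genes that rose included the ubiquitin ligase adaptor gene KLHL24 (1.43, SE 0.167), the glycine transporter gene SLC6A9 (1152 ± 282 normalized counts against 572 ± 149.7 in siControl, adjusted p = 0.0308) and the cell cycle inhibitor gene CDKN1A (0.97, SE 0.147).

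Aminoacyl-tRNA synthetases, which charge tRNAs and of which many are ATF4 targets, showed 9 of 20 genes lower and 0 higher (median -0.24). In all, 19 of 20 had a value below 0, passing or not, as did 53.3% of the genes averaging 20 normalized counts or more. All 20 averaged 1000 normalized counts or more, a level at which 19.9% of genes fell. VARS1 fell by 0.40 (SE 0.0743), FARSA by 0.32 (SE 0.0829) and YARS1 by 0.31 (SE 0.0639). Of the 21 genes of one-carbon and glycine metabolism measured, 6 fell and 2 rose (median -0.11), and 10 of the 21 reached that level. The mitochondrial folate enzyme gene MTHFD2 and its cytosolic relative MTHFD1 fell by 0.39 (SE 0.0845) and 0.38 (SE 0.0789), TYMS, the thymidylate synthase, fell by 0.37 (SE 0.12), and the serine carrier gene SFXN3 rose by 0.51 (SE 0.0796).

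Counts of changed genes in the lists depended on single libraries. The other ATF4 targets had 8 calls without siYAP+TAZ 25, and one-carbon and glycine metabolism had 5 without siControl 27. The synthetases had 8 or 9 calls whichever library was left out. With the run as a block 7 of the other ATF4 targets rose and 12 fell, and 13 synthetases fell and 0 rose. In one-carbon and glycine metabolism 2 rose and 6 fell, as without it. With the block 28.6% of all genes changed, and 46.9% of those averaging 1000 normalized counts or more, 31.1% being lower.

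In the list of eIF2alpha kinases, eIF2 and eIF2B, which also holds regulators such as PPP1R15A, 5 of 18 genes fell and 0 rose (median -0.17). That is 27.8% of the list, of which 14 genes averaged 1000 normalized counts or more, a level at which 19.9% of all genes fell. With the run as a block 10 of the 18 fell, against 28.6% of all genes changed and 31.1% lower at that level. Without the block, its lower genes included PPP1R15A, which the list shares with the ATF4 targets, EIF2AK4, the GCN2 kinase (-0.37, SE 0.102), and EIF2S1, eIF2alpha itself (-0.30, SE 0.0736). In asparagine and glutamine metabolism 5 of 12 fell and 0 rose (median -0.21), where 10 of the 12 reached that level, including ASNSD1 (-0.40, SE 0.0994), GOT1 (-0.31, SE 0.0829) and the proline enzyme gene PYCR1 (-0.29, SE 0.0857). With the block 6 of the 12 fell and 0 rose. Without siYAP+TAZ 20 or 25 the eIF2 list had 3 calls and the asparagine and glutamine list 1, and the latter had 2 or 3 without siControl 22, siControl 27 or siYAP+TAZ 30.

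The ATF6 and XBP1 arms of the unfolded protein response, a separate branch of endoplasmic reticulum stress, showed 4 of 26 genes higher and 0 lower (median 0.058), or 15.4% of the list, against 9.97% of all genes higher. A mean of 1000 or more was reached by 20 of the 26. SEC24D (0.39, SE 0.102), EDEM1 (0.34, SE 0.0869) and ATF6B (0.26, SE 0.0727) were among them, while the chaperone gene HSPA5 had a value of -0.09 (SE 0.135, adjusted p = 0.716). Without siControl 17 or siYAP+TAZ 20 there were 2 calls, and without siControl 27 there was 1. With the block, where 28.6% of all genes changed, 4 of this list rose and 1 fell. Of 11 glutathione genes 1 rose (OPLAH, 0.55, SE 0.18) and 1 fell (GGCT, -0.47, SE 0.135), with a median of -0.056, and the list had 0 calls without siYAP+TAZ 20 and 4 with the block, 2 in each direction. Among 18 genes that feed into mTORC1, the complex that DDIT4 restrains, 4 rose and 1 fell (median 0.10), near the background of 18.4% for all genes and 30.9% at the higher level, which 8 of the 18 reached. Without siControl 17 or 22 or siYAP+TAZ 20 or 25 this list had 3 calls, and with the block 5 of its genes rose and 1 fell. SESN3, of the sestrin inhibitors, rose by a log2 value of 1.13 (SE 0.22), the gene CASTOR2, related to the arginine sensor, rose by 0.87 (SE 0.184), and TXNIP, which limits glucose uptake, by 0.25 (SE 0.0728), while RHEB, which activates mTORC1, fell by 0.27 (SE 0.0812). SESN2, a stress-induced sestrin and ATF4 target, was at 0.08 (SE 0.236, adjusted p = 0.857).

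In the single knockdowns, where 0.933% and 2.03% of all genes changed, these lists held few calls, and the genes concerned are named after their values were seen. In siYAP the amino acid transporter genes SLC7A5 (-0.41, SE 0.0804, adjusted p = 0.0163) and SLC7A1 (-0.31, SE 0.0712, adjusted p = 0.0486) fell among the 31 other ATF4 targets, SFXN3 rose (0.34, SE 0.0795, adjusted p = 0.0471), and the other 6 lists had 0 calls. In siTAZ ATF6B of the ATF6 and XBP1 list rose (0.29, SE 0.0727, adjusted p = 0.0433) and the other 7 lists had 0 calls. SLC7A5 and SLC7A1, together with SLC1A4, were also lower in siYAP than in siTAZ when compared directly, by -0.39, -0.33 and -0.71, against 0.642% of all genes changed, and these 3 calls were lost without siYAP 18 or 28. Against siTAZ, where 5.44% of all genes changed, siYAP+TAZ had 6 lower and 1 higher gene among the other ATF4 targets, 3 lower synthetases (MARS1, SARS1 and YARS1), 2 lower and 1 higher one-carbon genes, and the lower genes GGCT and RHEB. Against siYAP, where 5.13% changed, KLHL24 and CDKN1A of the other ATF4 targets and SESN3 and CASTOR2 of the mTORC1 inputs were higher, and the synthetase gene VARS1, the purine synthesis genes ATIC and GART and the glutathione gene CHAC2 were lower.

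**Figure D4:**
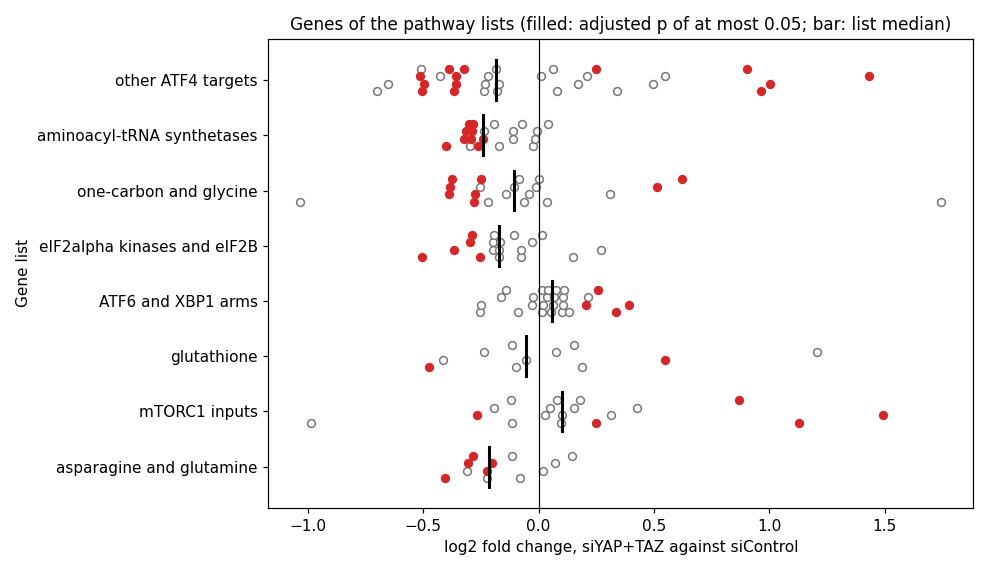
Log2 fold changes of siYAP+TAZ against siControl (horizontal axis) for the measured genes of the 8 pathway lists (vertical axis), 1 point per gene, filled red for an adjusted p of at most 0.05, with a bar at the list median. The medians of the synthetases (-0.24) and of asparagine and glutamine metabolism (-0.21) lie furthest below 0, and that of the mTORC1 inputs (0.10) lies furthest above.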

How the data were processed

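Groups were taken from the sample names, with 15 libraries in all. The authors prepared polyadenylated RNA, sequenced single reads, trimmed them with cutadapt, aligned them to GRCh38 (GENCODE 34) with STAR 2.4.2a in the UTAP pipeline and deposited raw counts per gene. Their normalized values, rlog values and comparison columns were not used. The members and lists were chosen with earlier results of these data known.

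The quasi-likelihood test of edgeR 4.0.16 (R 4.3.3) was run with TMM scaling and robust estimation on all 15 libraries, with 1 coefficient per group and no block, with Benjamini-Hochberg adjustment over 18858 genes. In all of them at least 1 library reached 5 reads. On simulated counts for siYAP+TAZ against siControl (18858 genes), 85 of 100 genes changed by a log2 value of 1 were recovered, and 98 of 100 changed by 2, while 11 unchanged genes were called in the whole simulation. Fold changes are log2 values. Named list genes are up to 3 per direction and list with the largest change among those that passed in siYAP+TAZ against siControl averaging 20 normalized counts or more, apart from HSPA5, SESN2, MARS1 and the genes named for other comparisons, chosen after their values were seen, and 1 gene that is not reported here. Gene positions are from GENCODE 44 on GRCh38. Alternatives were DESeq2 1.42.0, limma-voom 3.58.1, other scalings and filters, Control as reference, only the groups compared, a block for runs of library numbers and leaving out each library. The study describes 3 independent sets of experiments per condition, and which library belongs to which set is not given in the sources used here. Library numbers fall into 3 runs of 5, each with 1 library per group. In the 18 same-run pairs without siTAZ libraries the deviations from group means correlated at over 0.1 in every pair (lowest 0.19). Outside siTAZ, pairs across the first and second runs did so as well, such as siControl 17 with siYAP+TAZ 25 (0.386). Pairs of either with the third run were negative. These values therefore do not tell the first run from the second, and blocked values are given as an alternative for results of those comparisons.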

Additional observations from a re-analysis of the deposited data

How the results depend on the processing

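Across the alternatives tried, 211 of 257 recomputed counts of changed members or list genes stayed within 1.5 times the value given, and of 723 single fold changes 658 kept their direction and side of the threshold, 27 newly passed, 13 no longer passed and 25 changed sign.

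Members past the test rose from 0 to 1 in siTAZ with DESeq2, with library size as the only scaling and against Control, in each case PHGDH. In siYAP+TAZ against siYAP they rose from 0 to 3 with DESeq2, and to 1 with limma-voom, with at least 10 reads in at least 3 libraries, with filterByExpr, without robust estimation and with only the groups compared. In siYAP+TAZ against siTAZ they fell from 2 to 1 with library size as the only scaling and with only the groups compared. The glutathione list fell from 2 to 1 with only the groups compared, and the asparagine and glutamine list from 5 to 3 with library size as the only scaling. The cause of these shifts was not tested.

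Leaving out 1 library gave 0 to 1 changed members in siTAZ, 1 to 2 in siYAP+TAZ against siTAZ and 0 to 1 in siYAP against siTAZ. In siYAP+TAZ against siControl it gave 8 to 12 other ATF4 targets, 5 to 7 one-carbon and glycine genes, 3 to 6 of the eIF2 list, 1 to 4 of the ATF6 and XBP1 list, 0 to 2 of glutathione, 3 to 5 of mTORC1 inputs and 1 to 4 of asparagine and glutamine. Fold changes near 0 crossed it. In siYAP+TAZ CHAC1 ranged from -0.20 to 0.081 and PSPH from -0.022 to 0.074. In siYAP DDIT4 ranged from -0.36 to 0.30, ASNS from -0.52 to 0.087, PHGDH from -0.029 to 0.16 and PSPH from -0.092 to 0.030. In siTAZ ATF4 ranged from -0.011 to 0.16, CHAC1 from -0.020 to 0.48, PSAT1 from -0.024 to 0.13 and SHMT2 from -0.087 to 0.0034. Other settings also turned such values: DDIT4 in siYAP was 0.092 with limma-voom, 0.023 with library size and 0.12 against Control. PSPH in siYAP was 0.00020 with filterByExpr, 0.033 with library size and 0.084 against Control, and ASNS in siTAZ was -0.16 against Control.

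In 26 of the 30 same-run pairs of libraries the deviations from group means correlated at over 0.1 (-0.050 to 0.616 over all 30), and the 4 others all hold siTAZ 24. The runs were therefore not taken to pair siTAZ with other groups, where the blocked values below show only what a shared number would give. With the run as a block, 1 member changed in siYAP (ATF4), 1 in siTAZ (PHGDH) and 3 in siYAP+TAZ against siYAP. In siYAP+TAZ against siTAZ 4 changed (ATF4, PHGDH, PSAT1 and SHMT2), and in siYAP against siTAZ 4 (ATF4, CHAC1, PHGDH and PSAT1). ATF4 passed in siYAP+TAZ (-0.26), the eIF2 list had 10 calls and the glutathione list 4, and DDIT4 in siYAP was 0.017. Over all genes the block raised the calls to 5389 in siYAP+TAZ, 1151 in siYAP, 1942 in siTAZ, 2758 and 2795 in siYAP+TAZ against siYAP and siTAZ, 1380 in siYAP against siTAZ and 122 for the interaction.

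Over all genes DESeq2 called 400 in siYAP, 802 in siTAZ, 354 in siYAP against siTAZ and 21 interactions. With only the groups compared there were 147 in siTAZ, 603 in siYAP+TAZ against siTAZ and 1 in siYAP against siTAZ, and against Control there were 276 in siYAP and 642 in siTAZ. Library size as the only scaling gave 143 higher and 64 lower in siYAP, in place of 90 and 86, and 32 higher and 46 lower in siYAP against siTAZ, in place of 32 and 89. ASNS had the lowest counts of the members, 11 to 36 per library, and its interval in siYAP+TAZ against siControl was wide (-1.02 to 0.39).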
